A study of Mus musculus with 12 samples.

Results

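The elastic fibre genes described here are 10 genes, Eln, Fbn1, Fbn2, Fbln2, Fbln5, Efemp2, Lox, Loxl1, Mfap4 and Ltbp4, out of 37991 gene identifiers counted. They were listed by what their proteins do in the elastic fibre, and the family was chosen by the values of Eln, which were higher in Ing1-KO and DKO than in WT. Those values are therefore given as a description with no test. All 10 had enough reads to be among the 16163 genes tested. RNA was sequenced from mouse embryonic fibroblasts after 6 days of differentiation towards adipocytes, in 4 genotypes with 3 libraries each.

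The genotypes are DKO (Gadd45a-/- and Ing1-/- together), Ing1-KO (Ing1-/-), Gadd45a-KO (Gadd45a-/-) and WT, obtained by interbreeding mice deficient in either gene. All 4 share the C57BL/6N background, an origin in male E15.5 embryos and 4 passages in culture. Differentiation was started for 48 h with insulin (10 µg/ml), the PPAR-gamma agonist rosiglitazone (2 µM), the glucocorticoid dexamethasone (1 µM) and the phosphodiesterase inhibitor isobutylmethylxanthine (0.5 mM), and went on in medium with insulin. Whether the 3 libraries of a genotype stem from separate embryos or separate dishes is not stated in the labels. The p-values below therefore reflect variation among these libraries only, and that variation may be technical.

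The libraries held between 42891627 and 52860419 reads in genes. Ing1 followed its label, with 0.915 ± 0.234 CPM (read counts scaled to the TMM-adjusted library size) in DKO, 1.22 ± 0.326 CPM in Ing1-KO, 46.0 ± 1.47 CPM in Gadd45a-KO and 45.4 ± 2.26 CPM in WT (SD, n = 3 each). Gadd45a separated the libraries as labelled, but its reads were higher, not lower, where the label names its loss. It had 140 ± 1.90 CPM in the libraries labelled DKO and 143 ± 1.75 CPM in those labelled Gadd45a-KO. In Ing1-KO it had 15.6 ± 2.55 CPM and in WT 15.8 ± 1.82 CPM (SD, n = 3 each). Single libraries lay between 138 and 144 CPM in DKO and Gadd45a-KO and between 13.4 and 18.4 CPM in Ing1-KO and WT. Why the reads were higher was not tested. That Gadd45a was lost in the libraries labelled DKO or Gadd45a-KO was not seen in the reads and rests on the labels. Every direction drawn from these libraries rests on it too, and DKO and Gadd45a-KO below stand for the libraries so labelled. Fibroblast markers were abundant throughout: their 8 genes summed to between 37597 and 43030 CPM in the libraries labelled DKO, 44898 and 45704 CPM in Ing1-KO, 42794 and 44751 CPM in those labelled Gadd45a-KO, and 43983 and 48366 CPM in WT. The 12 adipocyte markers summed to 442 to 514 CPM in the libraries labelled DKO, 430 to 3448 CPM in Ing1-KO, 1316 to 1740 CPM in those labelled Gadd45a-KO, and 1926 to 3831 CPM in WT.

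Elastic fibres let skin, lung and artery recoil after stretch. They form outside the cell: tropoelastin, the monomer encoded by Eln, is laid onto a scaffold of microfibrils made mainly of fibrillins, helped there by fibulins, and is then cross-linked by copper-dependent lysyl oxidases into insoluble elastin. Microfibrils also hold latent TGF-beta through the latent TGF-beta binding proteins. Preadipocytes and fibroblasts make these proteins, and mature fat cells sit in such a matrix.

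Promoter sequence was matched by gene symbol in RefSeq (GRCm38.p6) for 5 members: Fbn1, Fbln2, Fbln5, Efemp2 and Ltbp4. The 250 bases before an annotated start are shown for the 2 short fibulins, Efemp2, which was lower in the libraries labelled DKO, and Fbln5, for which no difference passed the test. The Efemp2 window lies at chr19:5473696-5473945 on the plus strand and the Fbln5 window at chr12:101819120-101819369 on the minus strand, and neither overlaps an annotated exon. They were chosen for that: the table holds 2 windows for Fbln5 and 3 for Efemp2, one for each annotated start, and the others reach into exons. The bases that follow each shown window were not found near the start of any GENCODE M21 transcript of its gene. Those that follow the other Efemp2 windows were found there, and those that follow the other Fbln5 window were not. The shown windows may therefore not be the promoters in use. The Ltbp4 window at chr7:27333664-27333913 is also free of exon bases, and the bases that follow it were found near a transcript start. It is left out because only the short fibulins are shown. Capitals mark the GC box, searched as GGGCGG and as its reverse complement CCGCCC.
Efemp2: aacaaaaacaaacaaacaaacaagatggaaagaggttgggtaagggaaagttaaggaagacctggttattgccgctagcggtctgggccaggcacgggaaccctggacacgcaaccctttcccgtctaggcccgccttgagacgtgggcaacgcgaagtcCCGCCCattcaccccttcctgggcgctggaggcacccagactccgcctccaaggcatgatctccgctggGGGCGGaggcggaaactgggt
Fbln5: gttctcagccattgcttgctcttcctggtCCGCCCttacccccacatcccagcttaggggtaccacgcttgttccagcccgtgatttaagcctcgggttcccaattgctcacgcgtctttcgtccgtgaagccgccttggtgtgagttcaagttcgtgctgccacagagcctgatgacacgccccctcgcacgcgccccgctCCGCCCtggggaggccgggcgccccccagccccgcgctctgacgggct
Each of these windows holds 2 GC boxes, and 32.7% of the 32851 promoter windows of the same length hold at least 1. Neither holds TATAAA on either strand, against 12.4% of all windows. Their GC content is 59.2% for Efemp2 and 65.2% for Fbln5, above the median of 52.4% over all windows. The windows not shown differ: the other Fbln5 window holds 0 GC boxes at 49.6% GC, and the other Efemp2 windows hold 5 each at 75.6% and 78.8% GC.

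Eln (ENSMUSG00000029675, chromosome 5) varied far more between libraries than any other member. It was counted at 1146, 1241 and 557 CPM in the libraries labelled DKO (replicates 1, 2 and 3), at 797, 1179 and 782 CPM in Ing1-KO, at 609, 196 and 288 CPM in those labelled Gadd45a-KO, and at 188, 176 and 219 CPM in WT. All 6 libraries of DKO and Ing1-KO were above all 3 WT libraries. Replicate 3 labelled DKO, at 557 CPM, lay below the first labelled Gadd45a-KO, at 609 CPM, so those groups overlapped. The means were 981 ± 371, 919 ± 225, 364 ± 216 and 194 ± 22.3 CPM in DKO, Ing1-KO, Gadd45a-KO and WT (SD, n = 3 each). In that order of levels, neither DKO and Ing1-KO nor Gadd45a-KO and WT were separated beyond their spread, while Ing1-KO and Gadd45a-KO did not overlap. The fitted level was 5.05 times the WT level in the libraries labelled DKO (log2 fold change 2.34), 4.73 times in Ing1-KO (2.24) and 1.88 times in those labelled Gadd45a-KO (0.91). The Gadd45a-KO value rests on 1 library: without replicate 1 its log2 fold change was 0.32, while leaving out single libraries kept the DKO value between 2.14 and 2.62 and the Ing1-KO value between 2.02 and 2.35. Against the libraries labelled Gadd45a-KO, those labelled DKO had 2.69 times the Eln level (log2 fold change 1.43, and 2.02 without the first library labelled Gadd45a-KO), and against Ing1-KO 1.07 times (0.09). On the log2 scale the DKO level of Eln departed from the sum of the single mutants by -0.81, and by -0.23 without the first library labelled Gadd45a-KO.

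**Figure D1:**
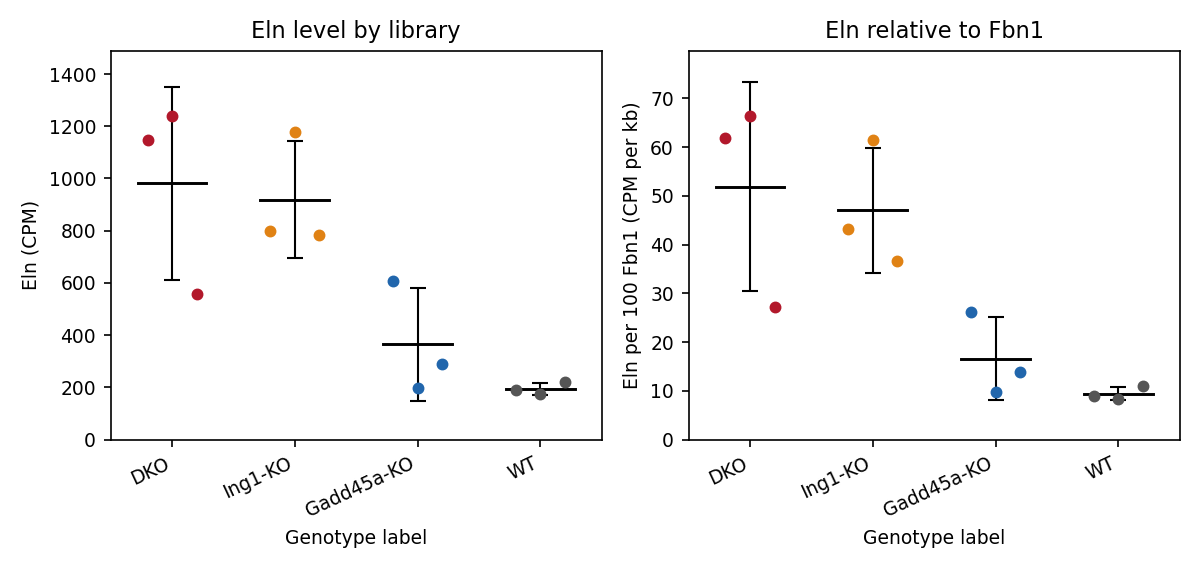
Eln in each of the 12 libraries, in CPM (left) and as Eln per 100 Fbn1 after division by exon length (right), by genotype label on the x axis. Points are libraries, horizontal lines are means and bars are the SD of 3 libraries. Replicate 3 labelled DKO (557 CPM) and the first labelled Gadd45a-KO (609 CPM) lie next to each other, and the WT libraries lie between 176 and 219 CPM.

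Levels were next divided by the joint length of all annotated exons of each gene. That length can exceed the length of an mRNA, so ranks and ratios between genes depend on it. On this scale Eln was among the least abundant members in WT. It averaged 121 ± 45.8 CPM per kb in the libraries labelled DKO, 114 ± 27.8 in Ing1-KO, 45.0 ± 26.7 in those labelled Gadd45a-KO and 24.0 ± 2.75 in WT (SD, n = 3 each). In WT only Ltbp4, at 7.87 CPM per kb, was lower, and Lox was the most abundant at 1329 CPM per kb, followed by Fbln2 (716), Fbn1 (257), Mfap4 (208), Fbln5 (157), Efemp2 (96.4), Loxl1 (93.3) and Fbn2 (66.0). The mean of Eln per kb in DKO and Ing1-KO exceeded that of Efemp2 (73.6 and 91.3), Loxl1 (90.3 and 89.2) and Fbn2 (78.6 and 83.3) in the same genotypes. Relative to its microfibril scaffold, there were 61.9, 66.5 and 27.3 Eln per 100 Fbn1 on the per-length scale in the libraries labelled DKO, 43.2, 61.4 and 36.6 in Ing1-KO, 26.1, 9.73 and 13.8 in those labelled Gadd45a-KO, and 8.93, 8.29 and 10.9 in WT. Every DKO and Ing1-KO library exceeded every Gadd45a-KO and WT library in this ratio. The margin was narrow at its closest, with 27.3 in DKO replicate 3 against 26.1 in Gadd45a-KO replicate 1. This ratio contains the Eln values that chose the family and was not tested. Relative to Lox, its cross-linking enzyme, there were 10.2 ± 3.93, 8.84 ± 2.32, 3.57 ± 2.00 and 1.80 ± 0.157 Eln per 100 Lox per length in DKO, Ing1-KO, Gadd45a-KO and WT (SD, n = 3 each). Eln made up 4.28 ± 1.56% of the summed per-length level of the 10 members in the libraries labelled DKO, 3.96 ± 0.933% in Ing1-KO, 1.54 ± 0.852% in those labelled Gadd45a-KO and 0.812 ± 0.090% in WT (SD, n = 3 each).

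The rest of the family varied far less than Eln. The 9 other members summed to 15523 to 15940 CPM in the libraries labelled DKO, 15932 to 16342 CPM in Ing1-KO, 16300 to 17479 CPM in those labelled Gadd45a-KO and 16927 to 17259 CPM in WT. Across the 12 libraries the highest value of each was between 1.24 times (Loxl1) and 1.78 times (Ltbp4) the lowest, against 7.06 times for Eln. No member other than Eln differed from WT by more than 0.39 on the log2 scale in any genotype.

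**Figure D2:**
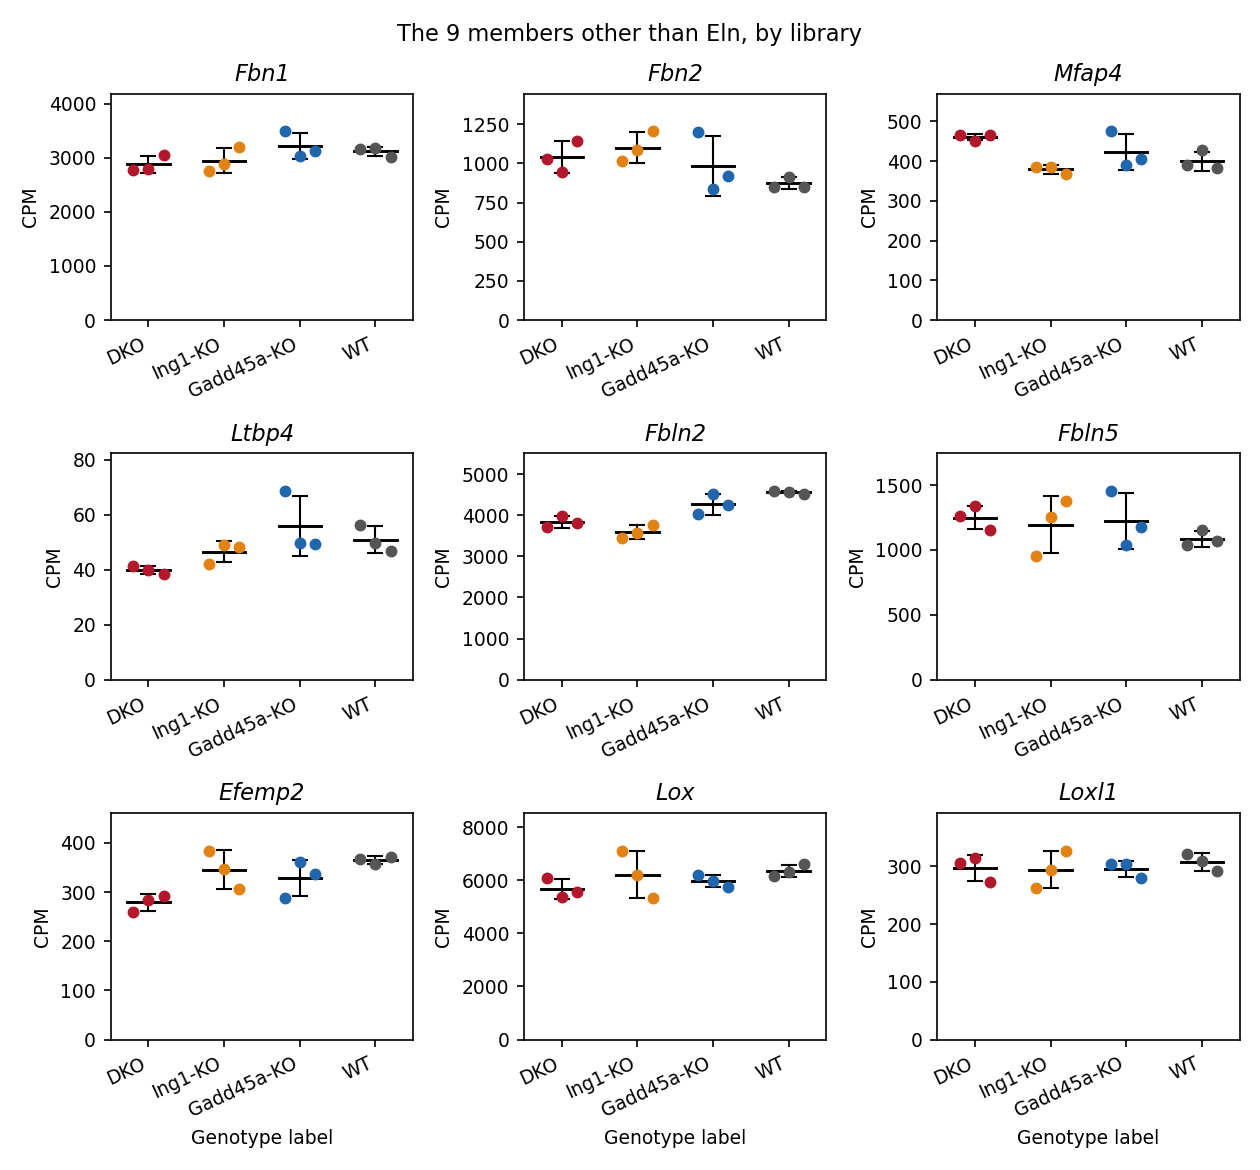
The 9 members other than Eln in each library, in CPM on axes that start at 0, by genotype label on the x axis. Points are libraries, horizontal lines are means and bars are the SD of 3 libraries. Fbln2 lies between 3434 and 3993 CPM in DKO and Ing1-KO and between 4526 and 4589 CPM in WT, and Efemp2 lies between 260 and 292 CPM in DKO and between 356 and 371 CPM in WT.

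Among the scaffold genes, Fbn1 (ENSMUSG00000027204, chromosome 2) encodes fibrillin-1, the main microfibril protein, whose human gene is mutated in Marfan syndrome. It was counted at 2776, 2795 and 3061 CPM in the libraries labelled DKO, 2761, 2879 and 3201 CPM in Ing1-KO, 3491, 3025 and 3130 CPM in those labelled Gadd45a-KO, and 3156, 3176 and 3023 CPM in WT. Its groups overlapped, and no comparison passed the test, the largest difference being -0.16 on the log2 scale between the libraries labelled DKO and those labelled Gadd45a-KO (SE 0.0706, adjusted p = 0.236 by edgeR). Fbn2 (chromosome 18) encodes fibrillin-2, the form most used in the embryo. It had 1030, 943 and 1144 CPM in the libraries labelled DKO, 1014, 1085 and 1205 CPM in Ing1-KO, 1198, 834 and 918 CPM in those labelled Gadd45a-KO, and 852, 916 and 849 CPM in WT. All DKO and Ing1-KO libraries were above all WT libraries, yet the difference did not pass the test in Ing1-KO (0.34 on the log2 scale, SE 0.123, adjusted p = 0.152) or in DKO (0.25, SE 0.123, adjusted p = 0.205). Without the first library labelled Gadd45a-KO, the highest of its group at 1198 CPM, the adjusted p of Fbn2 was 0.034 in Ing1-KO, with the same fold change. Set against each other, there were 33.1 ± 1.86 Fbn2 per 100 Fbn1 per length in the libraries labelled DKO, 34.3 ± 0.485 in Ing1-KO, 27.9 ± 3.21 in those labelled Gadd45a-KO and 25.7 ± 0.854 in WT (SD, n = 3 each). This ratio was at least 31.0 in every DKO and Ing1-KO library and at most 26.5 in every WT library; the first library labelled Gadd45a-KO, at 31.5, lay among the DKO values. This ratio was not tested.

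Mfap4 (ENSMUSG00000042436, chromosome 11) encodes a microfibril-associated protein that binds tropoelastin and fibrillin. It was counted at 465, 451 and 465 CPM in the libraries labelled DKO, 386, 386 and 367 CPM in Ing1-KO, 475, 390 and 404 CPM in those labelled Gadd45a-KO, and 391, 427 and 382 CPM in WT. The libraries labelled DKO lay above all Ing1-KO and WT libraries, while the first library labelled Gadd45a-KO was the highest of all. Mfap4 was higher in the libraries labelled DKO than in Ing1-KO, its log2 difference being 0.28 (SE 0.0685, adjusted p = 0.0318 by edgeR), and against WT its 0.20 missed the threshold (SE 0.0685, adjusted p = 0.0759). Ltbp4 encodes a latent TGF-beta binding protein that interacts with fibulin-5 and takes part in laying down elastin. It was the least abundant member, at 41.2, 39.9 and 38.6 CPM in the libraries labelled DKO, 42.1, 49.1 and 48.2 CPM in Ing1-KO, 68.6, 49.7 and 49.3 CPM in those labelled Gadd45a-KO, and 56.3, 49.7 and 46.7 CPM in WT. The libraries labelled DKO were below all 9 others. The differences of the libraries labelled DKO were -0.49 from Gadd45a-KO (SE 0.123, adjusted p = 0.0724), -0.35 from WT (SE 0.123, adjusted p = 0.0854) and -0.22 from Ing1-KO (SE 0.123, adjusted p = 0.242) on the log2 scale, and none passed. Without the first library labelled Gadd45a-KO, the adjusted p against WT was 0.00945 for Ltbp4 and 0.0132 for Mfap4.

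Of the fibulins, Fbln2 (ENSMUSG00000064080, chromosome 6) encodes fibulin-2, which links fibrillin microfibrils to elastin and basement membrane proteins. It was counted at 3706, 3993 and 3817 CPM in the libraries labelled DKO, 3434, 3578 and 3769 CPM in Ing1-KO, 4019, 4512 and 4255 CPM in those labelled Gadd45a-KO, and 4589, 4567 and 4526 CPM in WT. The WT libraries were the highest 3 of the 12. Fbln2 fell by 0.34 in log2 units in Ing1-KO (SE 0.055, adjusted p = 0.00947 by edgeR) and fell by 0.25 in the libraries labelled DKO (SE 0.055, adjusted p = 0.0176). In the libraries labelled Gadd45a-KO it was also below all WT libraries, but the difference of -0.10 did not pass (SE 0.055, adjusted p = 0.88). Efemp2 (ENSMUSG00000024909, chromosome 19) encodes fibulin-4, which binds lysyl oxidase and without which mice form no sound elastic fibres. It had 260, 284 and 292 CPM in the libraries labelled DKO, 384, 347 and 306 CPM in Ing1-KO, 288, 361 and 337 CPM in those labelled Gadd45a-KO, and 368, 356 and 371 CPM in WT. The libraries labelled DKO overlapped only those labelled Gadd45a-KO, through replicate 1. Efemp2 fell by 0.39 in log2 units in the libraries labelled DKO against WT (SE 0.0913, adjusted p = 0.0213), and its -0.31 against Ing1-KO was just above the threshold (SE 0.0912, adjusted p = 0.0504). Fbln5 (ENSMUSG00000021186, chromosome 12) encodes fibulin-5, which carries tropoelastin to the microfibril and binds integrins. It had 1262, 1335 and 1152 CPM in the libraries labelled DKO, 951, 1251 and 1379 CPM in Ing1-KO, 1454, 1037 and 1178 CPM in those labelled Gadd45a-KO, and 1038, 1155 and 1065 CPM in WT. Its groups overlapped, and its differences from WT of 0.20, 0.14 and 0.17 in DKO, Ing1-KO and Gadd45a-KO did not pass (SE 0.143 each, adjusted p = 0.393, 0.648 and 0.925).

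No difference of the cross-linking enzymes from WT passed the test. Lox (chromosome 18) encodes lysyl oxidase, which also cross-links collagen, and was the member with the most reads. It was counted at 6095, 5367 and 5549 CPM in the libraries labelled DKO, 7108, 6190 and 5329 CPM in Ing1-KO, 6184, 5971 and 5749 CPM in those labelled Gadd45a-KO, and 6155, 6303 and 6593 CPM in WT. The libraries labelled DKO were below those of WT, but the difference of -0.16 on the log2 scale did not pass (SE 0.0911, adjusted p = 0.269), and the Ing1-KO libraries spanned both the highest and the lowest value. Loxl1 (chromosome 9) encodes the lysyl oxidase relative most closely tied to elastin. It had 305, 315 and 272 CPM in the libraries labelled DKO, 263, 293 and 327 CPM in Ing1-KO, 304, 304 and 280 CPM in those labelled Gadd45a-KO, and 322, 309 and 292 CPM in WT. All 4 groups overlapped, and its differences from WT were between -0.07 and -0.05. There were 7.63 ± 0.773, 7.03 ± 1.77, 7.19 ± 0.176 and 7.04 ± 0.591 Loxl1 per 100 Lox per length in DKO, Ing1-KO, Gadd45a-KO and WT (SD, n = 3 each), so this ratio did not separate any genotypes beyond its spread.

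Counted over the 9 members that did not choose the family, 2 were lower and none was higher in the libraries labelled DKO than in WT at an adjusted p under 0.05 by edgeR, where 13% of all genes tested were called (7.09% lower and 5.94% higher). In Ing1-KO 1 member was lower than WT, where 4.32% of all genes were called (1.92% lower and 2.4% higher). In the libraries labelled Gadd45a-KO 0 members differed from WT, where 0.0124% of all genes were called. There were also 0 members at an unadjusted p under 0.05, where 5.48% of all genes were, and 0 called by DESeq2, where 0.0433% of the genes with an adjusted p were. Set against the libraries labelled Gadd45a-KO, those labelled DKO had 0 members called, where 1.26% of all genes were. There were 4 members at an unadjusted p under 0.05, where 20% of all genes were, and 1, Ltbp4, was called by DESeq2, where 7.94% of the genes with an adjusted p were. Set against Ing1-KO, 1 member was higher in the libraries labelled DKO, where 11.7% of all genes were called (5.91% higher and 5.76% lower). These comparisons share libraries. The median log2 fold change of the 9 was -0.12 in DKO, -0.07 in Ing1-KO and 0.04 in Gadd45a-KO against WT, where the medians over all genes were -0.00257, 0.00313 and -0.00103. Library values did not overlap between DKO and WT for 6 of the 9 members, against 37.3% of all genes, and between Ing1-KO and WT for 2 of the 9, against 26.6%. The same held for 1 of the 9 between Gadd45a-KO and WT (12.2% of all genes), 2 between DKO and Gadd45a-KO (26%) and 3 between DKO and Ing1-KO (34.2%). For the departure of DKO from the sum of the single mutants on the log2 scale, 0 of the 9 members and 0% of all genes were called by edgeR. At an unadjusted p under 0.05 there was 1 member, Fbln2 (0.19 on the log2 scale, SE 0.0778, adjusted p = 0.321 by edgeR), where 13.6% of all genes were. By DESeq2 there were 0 members, where 1.28% of the genes with an adjusted p were called.

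**Figure D3:**
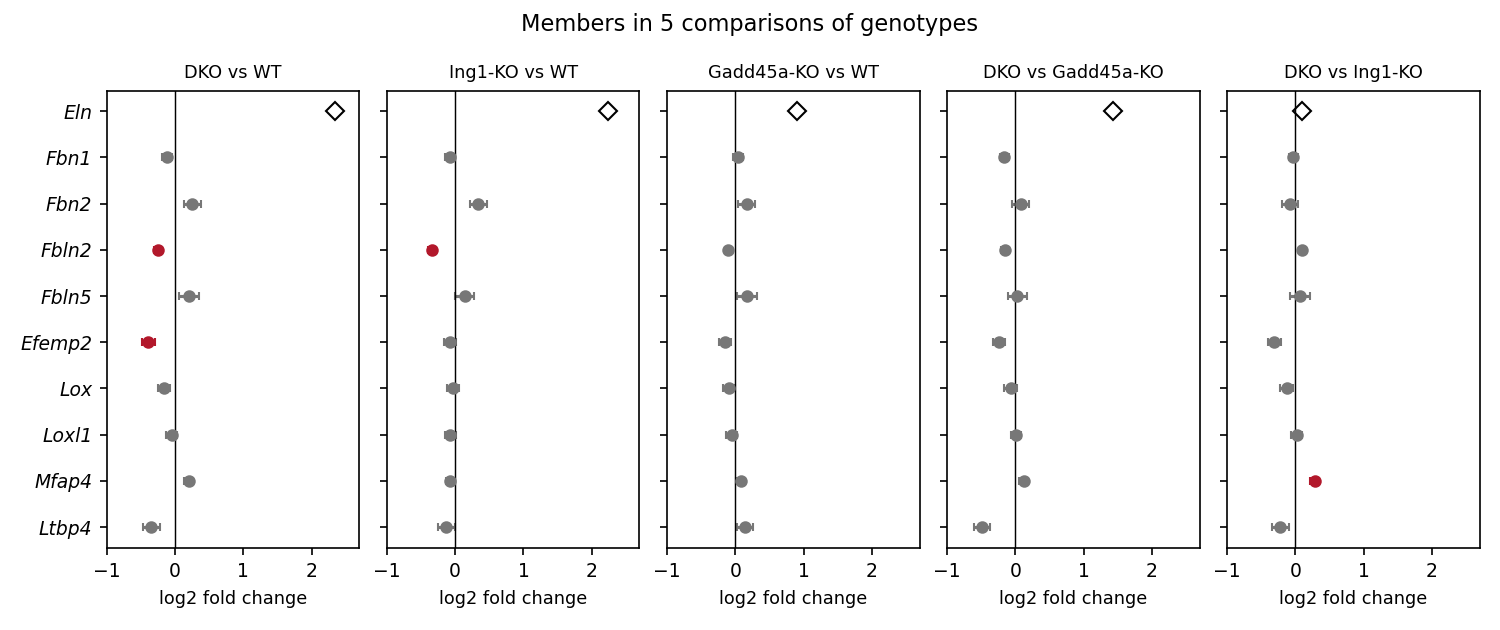
The log2 fold change (x axis) of the 10 members (y axis) in 5 comparisons, first-named genotype over the second. Bars are the SE of the edgeR fit, red points passed an adjusted p under 0.05, grey points did not, and the open diamond is Eln, which was not tested. Fbln2 is red in DKO vs WT (-0.25) and Ing1-KO vs WT (-0.34), Efemp2 in DKO vs WT (-0.39), and Mfap4 in DKO vs Ing1-KO (0.28).

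Each of these calls depended on single libraries. Fbln2 in DKO against WT was above the threshold without WT replicate 1 (adjusted p = 0.0745), WT replicate 3 (0.0573) or DKO replicate 1 (0.0804) by edgeR. Efemp2 was above it without WT replicate 1 (adjusted p = 0.0846), WT replicate 3 (0.0712), DKO replicate 1 (0.0922) or DKO replicate 2 (0.0572) by edgeR. Fbln2 in Ing1-KO was above it only without Ing1-KO replicate 2 (adjusted p = 0.0548), and Mfap4 in DKO against Ing1-KO was above it without any one of the 3 DKO libraries (0.103, 0.08 and 0.0592) or without Ing1-KO replicate 1 (0.0802) or 2 (0.0935). The direction was the same in all of these fits. The first library labelled Gadd45a-KO, which enters the DKO comparison with WT only through the shared fit, also bore on the count: without it 4 of the 9 members were called in DKO against WT, with Mfap4 higher and Ltbp4 lower besides Fbln2 and Efemp2, where 16.8% of all genes tested were called, against 13% with it.

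Exons of 6 members overlap those of a gene on the opposite strand in the annotation, and the library kit does not mark strand, so reads there cannot be told apart. For Efemp2 that neighbour is Mus81, at 15.4 to 17.5 CPM over the 12 libraries, and for Mfap4 it is Mapk7, at 36.6 to 46.1 CPM. For Eln, Fbn2 and Lox the neighbours are noncoding genes, and for Fbn1 it is Gm9913, at 1.44 to 2.60 CPM.

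Markers of other cell types moved with the genotypes, and in bulk RNA fewer cells of a type and less RNA per cell cannot be told apart. For the counts below, 5.94% of all genes tested were called higher and 7.09% lower in the libraries labelled DKO than in WT. In Ing1-KO against WT these shares were 2.4% and 1.92%. How the marker calls depend on single libraries was not examined. Of 8 smooth muscle markers, a cell type known for making elastin, 3 were higher and 0 lower in the libraries labelled DKO than in WT. In Ing1-KO against WT, 0 of these 8 markers were called. They summed to 6200 to 9466 CPM in DKO, 4977 to 7234 CPM in Ing1-KO, 6155 to 6330 CPM in Gadd45a-KO and 5033 to 6333 CPM in WT. Their lowest DKO sum, 6200 CPM, fell in replicate 3, the DKO library with the least Eln. In Ing1-KO the highest sum, 7234 CPM, fell in replicate 3 and the lowest, 4977 CPM, in replicate 1. Eln in those 2 libraries was close, at 782 and 797 CPM. Of 8 cartilage markers, 4 were higher and 1 lower in DKO than in WT, and 3 were higher in Ing1-KO. Higher in DKO were Acan (5.64 times the WT level), Matn1 (2.49 times), Col2a1 (2.23 times) and Col11a1 (1.5 times), and lower was Sox9 (0.619 times), the transcription factor that defines the cartilage lineage. Matn1 had few reads, at 0.366 CPM in DKO and 0.145 CPM in WT. Higher in Ing1-KO were Acan (9.69 times), Comp (5.62 times) and Col11a1 (1.52 times). The Ing1-KO libraries were uneven, with Acan at 18.4, 58.6 and 22.4 CPM and Comp at 33.6, 20.1 and 8.16 CPM. The 8 markers summed to 763 to 946 CPM in DKO, 810 to 1030 CPM in Ing1-KO, 545 to 713 CPM in Gadd45a-KO and 540 to 598 CPM in WT. The cartilage sums of DKO and Ing1-KO did not overlap those of Gadd45a-KO and WT, and the highest Gadd45a-KO sum was in replicate 1. Col11a1, a fibrillar collagen gene that fibroblasts also express, made up 88.8% to 95% of each sum. Without it the other 7 summed to 46.8 to 57 CPM in DKO, 61.6 to 115 CPM in Ing1-KO, 34.1 to 35.7 CPM in Gadd45a-KO and 35.8 to 38.7 CPM in WT. Of 10 macrophage and leukocyte markers, 5 were higher in DKO than in WT and 0 were called in Ing1-KO. They had sums of 6754 to 7286 CPM in DKO, 3680 to 4477 CPM in Ing1-KO, 1889 to 5716 CPM in Gadd45a-KO and 3703 to 4284 CPM in WT. Lyz2 made up 65.3% to 71.1% of each of these sums. The sum of 1889 CPM belonged to the first library labelled Gadd45a-KO, which had more Eln, Fbn1, Fbn2, Fbln5, Lox, Mfap4 and Ltbp4 than the other two of its group and less Fbln2 and Efemp2. Of 12 adipocyte markers, 10 were lower in DKO than in WT and 0 were called in Ing1-KO. In Gadd45a-KO 0 were called, where 0.0124% of all genes were. All 12 lay below WT in both single mutants, with median log2 fold changes of -0.91 in Ing1-KO and -1.07 in Gadd45a-KO. The 5 endothelial markers summed to at most 7.36 CPM and the 4 epithelial markers to at most 7.18 CPM in any library, with Epcam at 0 in 5 of the 12. The part of these marker differences in the levels of the elastic fibre genes was not tested.

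Ing1-KO libraries differed most in adipocyte markers, at 3448, 1187 and 430 CPM in replicates 1, 2 and 3. Fbn1, Fbn2, Fbln2, Fbln5 and Loxl1 were lowest in replicate 1 and highest in replicate 3 of that group, and Efemp2 and Lox were highest in replicate 1 and lowest in replicate 3. Eln, at 797, 1179 and 782 CPM, was highest in replicate 2, with replicates 1 and 3 close to each other. Any link of these levels with the adipocyte sum was not tested.

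Other genes of the pathway were counted from lists. In the libraries labelled DKO against WT, 5.94% of all genes tested were called higher and 7.09% lower. Among 15 further microfibril and fibulin genes, 1 was higher and 0 lower in the libraries labelled DKO than in WT. It was Ltbp1, which encodes the most studied latent TGF-beta binding protein, at 277, 306 and 226 CPM in DKO against 150, 173 and 165 CPM in WT (log2 fold change 0.73, SE 0.128, adjusted p = 0.00983 by edgeR). It was also higher in DKO than in Gadd45a-KO, which had 186, 150 and 158 CPM (0.71, adjusted p = 0.0363). Among 8 cross-linking and assembly genes, Atp7a, the copper pump that loads lysyl oxidases, was higher in DKO than in WT (0.19, SE 0.0461, adjusted p = 0.0248) and than in Ing1-KO (0.19, SE 0.0461, adjusted p = 0.0288). The 9 tested genes of the list of elastin and microfibril receptors had differences from 0.00 (Itgb8) to 0.41 in DKO against WT. Their median was 0.25, against -0.00257 over all genes tested. Of the 9, 6 did not pass and 3 did: Ctsa (0.34, adjusted p = 0.0188), Neu1 (0.41, adjusted p = 0.0195) and Glb1 (0.25, adjusted p = 0.0341). Their products are lysosomal enzymes, and cathepsin A, neuraminidase 1 and a splice form of the Glb1 product make up the elastin receptor complex. Ctsa had 375, 384 and 383 CPM in DKO, 339, 334 and 345 CPM in Ing1-KO, 261, 342 and 327 CPM in Gadd45a-KO and 296, 301 and 306 CPM in WT. It was thus highest in DKO and lowest in Gadd45a-KO replicate 1, as was the sum of the macrophage markers, whose part in this was not tested. Of the 3 TGF-beta ligands, Tgfb2 was higher in DKO than in WT (0.83, SE 0.229, adjusted p = 0.0412), at 53.1, 52.6 and 28.0 CPM in DKO against 23.4, 26.3 and 25.4 CPM in WT. None of the 6 tested elastin-degrading proteases was called in DKO against WT. The call of Ltbp1 against WT was lost without WT replicate 1 (adjusted p = 0.0552). The calls of Atp7a, Ctsa, Neu1, Glb1 and Tgfb2 against WT were each lost without WT replicate 1, WT replicate 3 or DKO replicate 1, with adjusted p between 0.058 and 0.144. All but Atp7a were also lost without DKO replicate 2 (0.0558 to 0.129), Atp7a, Glb1 and Tgfb2 without WT replicate 2 (0.0567 to 0.0782), Glb1 without DKO replicate 3 (0.0698), and Tgfb2 without Gadd45a-KO replicates 2 and 3 in turn, or Ing1-KO replicate 2 (0.0508 to 0.0589). Against Gadd45a-KO the call of Ltbp1 was lost without any WT library, either of DKO replicates 1 and 2, either of Gadd45a-KO replicates 2 and 3, or Ing1-KO replicate 2, with adjusted p between 0.0504 and 0.156. Against Ing1-KO that of Atp7a was lost without Ing1-KO replicate 1 or 2 or DKO replicate 1 or 2, with adjusted p between 0.0644 and 0.107.

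In Ing1-KO against WT, 2.4% of all genes tested were called higher and 1.92% lower. Of the 15 further microfibril and fibulin genes, 1 was higher in Ing1-KO than in WT and 0 were lower. It was Adamtsl4, whose human gene is mutated in forms of lens dislocation and whose product binds fibrillin-1, at 47.7, 47.6 and 34.1 CPM in Ing1-KO against 26.9, 21.0 and 27.3 CPM in WT (log2 fold change 0.78, SE 0.143, adjusted p = 0.0181 by edgeR). Of the proteases, Mmp2, a gelatinase that also cleaves elastin, was higher, at 633, 557 and 445 CPM in Ing1-KO against 414, 372 and 402 CPM in WT (0.46, SE 0.1, adjusted p = 0.0326). Mmp12, macrophage elastase, was lower, at 44.0, 34.4 and 27.3 CPM in Ing1-KO against 53.8, 62.4 and 59.5 CPM in WT (-0.73, SE 0.179, adjusted p = 0.0498). The macrophage marker sums of these 2 genotypes overlapped, and the part of macrophages in the Mmp12 level was not tested. No receptor, cross-linking or TGF-beta gene of these lists was called in Ing1-KO. No gene of the 5 lists was called in Gadd45a-KO against WT, where 0.0124% of all genes were. The call of Adamtsl4 was lost without WT replicate 1 or 2 or Ing1-KO replicate 2 (adjusted p = 0.0528, 0.0673 and 0.0841) by edgeR. That of Mmp2 was lost without any WT library, Gadd45a-KO replicate 3, Ing1-KO replicate 2 or DKO replicate 1 (0.0518 to 0.128). That of Mmp12 was lost without any one library other than Gadd45a-KO replicate 1 and Ing1-KO replicate 1 (0.0573 to 0.173).

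In the libraries labelled DKO against Ing1-KO, 1 of the 15 microfibril and fibulin genes was higher and 4 were lower. Of all genes tested, 5.91% were called higher and 5.76% lower. Adamtsl4 (log2 fold change -0.80, adjusted p = 0.0159 by edgeR), Efemp1 (-1.0, adjusted p = 0.027) and Ltbp3 (-0.33, adjusted p = 0.0362) fell and Adamtsl2 rose (0.72, adjusted p = 0.0258), while the fourth lower gene, named after its values were seen, was Mfap2 (-0.24, adjusted p = 0.0438). Efemp1 encodes fibulin-3, and had 45.5, 41.1 and 41.2 CPM in DKO against 110, 93.1 and 52.1 CPM in Ing1-KO. The proteases Mmp2 (-0.64, adjusted p = 0.0132) and Ctsk, which encodes cathepsin K (-0.52, adjusted p = 0.0151), also fell. Of the receptors, the integrin chain gene Itgb1 was higher (0.33, adjusted p = 0.0409) and Itgb8 lower (-0.77, adjusted p = 0.0383), and Tgfb1 was higher (0.46, adjusted p = 0.0322). Every one of these calls was lost without Ing1-KO replicate 2 or without DKO replicate 1, with adjusted p between 0.0621 and 0.141. Most were also lost without Ing1-KO replicate 1 (0.0538 to 0.133; not Mmp2 or Ctsk) or DKO replicate 2 (0.0512 to 0.129; not Mmp2). Efemp1, Ltbp3 and Itgb8 were lost without DKO replicate 3 (0.0578 to 0.0899), Ltbp3, Itgb8, Itgb1, Tgfb1 and Mfap2 without WT replicate 3 (0.0516 to 0.065), Itgb8, Itgb1 and Mfap2 without Gadd45a-KO replicate 3 (0.0548 to 0.0603), and Mfap2 also without WT replicate 2 (0.0523) or Gadd45a-KO replicate 2 (0.0548).

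The 5 genes whose pattern over the 12 libraries was most like that of Eln were Col10a1, Mecom, Fgf18, Gucy1a1 and Erg, ranked by the root mean square difference of log2 CPM after each gene was centred on its own mean, among 10524 genes. None is a member of the family. That difference was 0.374 for Col10a1, 0.488 for Mecom, 0.525 for Fgf18, 0.544 for Gucy1a1 and 0.561 for Erg, against a median of 1.07 over all ranked genes. Col10a1, which encodes a collagen of hypertrophic cartilage, had 13.9, 16.2 and 6.04 CPM in the libraries labelled DKO, 8.94, 10.0 and 9.56 CPM in Ing1-KO, 3.11, 1.66 and 2.12 CPM in those labelled Gadd45a-KO, and 1.66, 2.21 and 2.03 CPM in WT. As with Eln, DKO replicate 3 was the lowest of its group and Gadd45a-KO replicate 1 the highest. Mecom, which encodes a zinc-finger transcription factor, averaged 17.2 ± 2.99, 30.0 ± 9.57, 8.06 ± 1.46 and 7.15 ± 0.516 CPM in DKO, Ing1-KO, Gadd45a-KO and WT (SD, n = 3 each). Gucy1a1 encodes a subunit of the nitric oxide receptor guanylate cyclase, Fgf18 a fibroblast growth factor and Erg an ETS transcription factor, and their WT means were 3.23, 3.8 and 3.15 CPM. All 5 were far less abundant than Eln, and their choice by likeness fixes the similarity. Among the members, Fbn2 ranked 305 (0.954) and Fbln5 541 (0.988), while Fbln2, at 9860 (1.2), and Efemp2, at 9768 (1.19), were near the far end of the 10524 genes. A gene with no change at all would differ from Eln by 1.07. The measure includes the size of the changes, so a member that varied little lies near 1.07 whatever its shape. The ranks of the members therefore say little about whether they rose and fell with Eln.

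**Figure D4:**
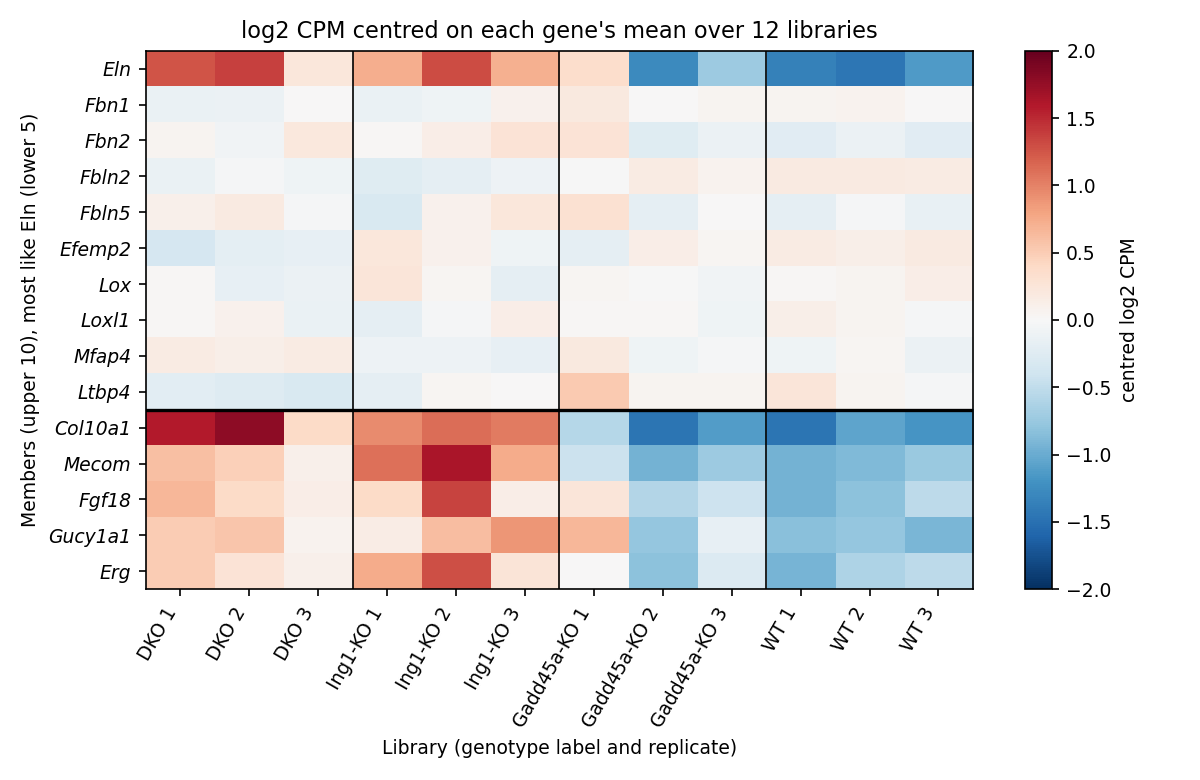
log2 CPM centred on each gene's mean over the 12 libraries (colour), for the 10 members in the upper rows and the 5 genes most like Eln in the lower rows, with libraries on the x axis in genotype blocks. Eln runs from 1.37 in the second library labelled DKO to -1.45 in the second WT library, while the rows of the other 9 members stay pale.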

How the data were processed

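Per the labels, polyadenylated RNA was prepared from 280 ng RNA in 12 PCR cycles with the TruSeq RNA v2 kit, which does not mark strand, and read in single 51-base reads over 7 lanes. The deposited files hold whole-number read counts per gene, not normalized; the submitters' processing notes name TopHat2 2.0.9, Bowtie2 2.1.0, HTSeq 0.5.4, FastQC and DESeq, with mm9 (NCBIM37). The strand setting of the counting is not given in the sources used here. Lines that name no gene, 24.2% to 24.8% of each library, were left out. Symbols were found for 32919 of 37991 identifiers.

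The counts were fitted here in 1 model of the 4 genotypes over 12 libraries with edgeR 4.0.16 (R 4.3.3, limma 3.58.1; TMM factors, filterByExpr, robust quasi-likelihood test), with Benjamini-Hochberg adjustment over 16163 genes and a threshold of 0.05. The SE is the log2 fold change over the root of F. CPM use TMM-scaled library sizes. Levels per kb divide by the joint length of all annotated exons of a gene in GENCODE M21 (GRCm38), not the build of the counts. DESeq2 1.42.0, other filters, factors and subsets were alternatives, and the legacy quasi-likelihood fit was added after seeing the data. The fit was tested on simulated data. Replicates of 1 genotype differed by more than sampling noise, so none was merged.

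Named genes are the 10 members, the 2 targeted genes, up to 4 called genes with the smallest adjusted p per list and comparison, and the 5 genes most like Eln (log2 CPM with a prior count of 2, mean of at least 5 CPM). The members and lists were chosen with earlier results of these data known. Eln was not tested, since its values chose the family. At these depths the least abundant member, Ltbp4, had 5431 reads over the 3 libraries with the fewest.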

Additional observations from a re-analysis of the deposited data

How the results depend on the processing

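The direction of each difference of the 10 members that was called, or for Eln at least as large as its spread, was the same under all alternatives. Uncalled differences near 0 changed sign in places, as for Loxl1 in DKO against WT (log2 fold change -0.09 to 0.01 over left-out libraries). Members called in DKO against WT came to 4 by DESeq2 and 5 in the 6 libraries compared (Fbn2, Mfap4 and Ltbp4 added), and to 0 to 4 over the fits that left out a library. In Ing1-KO against WT they came to 0 to 2, in Gadd45a-KO against WT to 0, in DKO against Gadd45a-KO to 1 by DESeq2, and in DKO against Ing1-KO to 2 with RLE factors, a mean of at least 5 CPM, the legacy fit or DESeq2 (Efemp2 added) and to 0 to 2 over left-out libraries. Over 19 alternatives the adjusted p of Fbln2 ranged from 0.000155 to 0.0804 in DKO and from 4.11e-08 to 0.0548 in Ing1-KO, that of Efemp2 in DKO from 0.00071 to 0.0922, and that of Mfap4 in DKO against Ing1-KO from 0.00336 to 0.103. Genes called over the whole table moved more. For DKO against WT there were 3172 in the 6 libraries and 296 (without WT replicate 1) to 2755 (without Gadd45a-KO replicate 1) over left-out libraries. For Ing1-KO against WT there were 1264 by DESeq2, 388 in the 6 libraries and 101 to 1203 over left-out libraries, and for Gadd45a-KO against WT 1 with a mean of at least 5 CPM, 7 by DESeq2 and 2 to 33. For DKO against Gadd45a-KO there were 95 with the replicate block, 1234 by DESeq2, 424 in the 6 libraries (81 higher and 343 lower, against 107 and 96) and 6 to 590, and for DKO against Ing1-KO 1081 with no filter, 2924 by DESeq2, 1227 in the 6 libraries (845 higher and 382 lower, against 956 and 931) and 2 to 3215. The interaction gave 1 with no filter, 175 by DESeq2 and 0 to 191 over left-out libraries. The cause was not tested. No pairing of the libraries by replicate number was seen: of 18 same-numbered pairs 2 correlated above 0.1 in their deviations from the genotype means (-0.189 to 0.251), against -0.382 to 0.385 for the other 36. The labels do not say what the numbers mark. Deviations among 3 libraries depend on each other, so these correlations cannot exclude pairing. With the replicate block, members called stayed at 2, 1, 0, 0, 1 and 0 in DKO, Ing1-KO and Gadd45a-KO against WT, DKO against Gadd45a-KO, DKO against Ing1-KO and the interaction, and genes called were 1810, 572, 2, 95, 1387 and 0; of the list genes, the block ended the calls of Tgfb2 in DKO against WT (adjusted p = 0.0651 by edgeR), Mmp12 in Ing1-KO (0.0683), Ltbp1 in DKO against Gadd45a-KO (0.0646), and Itgb1 (0.0647) and Mfap2 (0.0648) in DKO against Ing1-KO. With no filter on low counts the same 5 calls ended, as did those of Mmp2 in Ing1-KO against WT and of Efemp1, Itgb8 and Tgfb1 in DKO against Ing1-KO (adjusted p 0.051 to 0.099 by edgeR). In the 6 libraries compared, those calls other than Ltbp1, with Adamtsl4 in Ing1-KO and Ltbp3 in DKO against Ing1-KO, ended (0.0618 to 0.119), and the legacy fit ended that of Mmp12 (0.0519). The 5 genes most like Eln were the same with a prior count of 0.5.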
